A study of Mus musculus with 9 samples.

Results

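The genes described here are 9 mouse genes that make, bind, read or break down retinoic acid: the retinaldehyde dehydrogenases Aldh1a1, Aldh1a2 and Aldh1a3, the degrading enzyme Cyp26b1, the cytosolic binding proteins Crabp1 and Crabp2, and the receptors Rara, Rarb and Rarg. They were taken by symbol from a count table of 47729 genes in 9 RNA-seq libraries of cultured cells, and each symbol had 1 row. Of the 9 genes, 8 had enough counts to be tested, among 15696 genes tested in all, and Aldh1a2 did not.

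Every library came from cells cultured under neural stem cell conditions for up to 10 passages, and each group held 3 cultures. The LTR libraries (1, 2 and 3) were made from tumour cells derived from neural stem cells and labelled with the genotype lgT/Ras. The libraries labelled NF1 (1, 2 and 3) were made from tumour cells, also derived from neural stem cells, whose genotype label reads shp53, Nf1-/-, CDK4. The NSC libraries (1, 3 and 5) were made from primary neural stem cells of wild-type genotype, taken from the subventricular zone, the germinal layer that lines the lateral ventricles of the adult brain. The series calls its transformed lines GSC1 and GSC2, and the sources used here do not say which of them is LTR. The series describes the cultures as independent, but the labels do not say whether the cultures of a tumour line were transformed separately. The p-values below therefore set each difference between groups against the spread between these cultures and do not reach beyond them. The table's header gives 1 lane number for every NSC library and a different one for every tumour library, so lane and transformation cannot be told apart. RNA was measured from whole cultures, in which fewer cells of a type and less RNA per cell cannot be told apart.

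Retinoic acid is a small lipid hormone made inside cells from vitamin A. Alcohol and retinol dehydrogenases, among them Rdh10, oxidise retinol to retinaldehyde, and the Aldh1a enzymes oxidise retinaldehyde to retinoic acid. The Crabp proteins carry retinoic acid in the cytosol, and the Cyp26 enzymes hydroxylate it and so end its action. In the nucleus the retinoic acid receptors bind DNA as partners of the Rxr receptors, recruit corepressors when empty and coactivators when loaded, and act on genes such as Rarb itself, Cyp26a1 and the anterior Hox genes. In the brain retinoic acid patterns the hindbrain and favours the differentiation of neural progenitors.

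The DNA to which a loaded receptor pair binds is a direct repeat of a short unit, most often spaced by 5 bases. A pair of promoters among the retinoid genes carries such a repeat, and they are shown because they are the textbook example of this feedback: Rarb, the receptor that the data below turn on, and Cyp26a1, which encodes an enzyme of retinoic acid breakdown. Each line gives the 250 bases before the RefSeq start site, 5′ to 3′ on the gene's strand, with the stretch matched by the search in capitals. The Rarb stretch is GRCm38 chr14:16575477-16575726, minus strand, inside the longer gene that GENCODE annotates, and the Cyp26a1 stretch is GRCm38 chr19:37697558-37697807, plus strand.
Rarb: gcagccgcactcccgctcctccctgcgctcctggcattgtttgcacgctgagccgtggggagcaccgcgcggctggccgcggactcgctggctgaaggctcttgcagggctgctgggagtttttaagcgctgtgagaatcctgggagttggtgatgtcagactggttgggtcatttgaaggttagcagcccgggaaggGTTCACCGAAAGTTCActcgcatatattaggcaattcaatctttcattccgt
Cyp26a1: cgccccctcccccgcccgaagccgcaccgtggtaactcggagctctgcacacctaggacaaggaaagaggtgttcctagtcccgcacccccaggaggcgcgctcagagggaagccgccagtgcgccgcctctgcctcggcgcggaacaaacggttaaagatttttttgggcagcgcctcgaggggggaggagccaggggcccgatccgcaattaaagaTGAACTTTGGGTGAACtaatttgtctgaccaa
The search used GTTCANNNNNNGTTCA, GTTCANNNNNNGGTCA, GGTCANNNNNNGTTCA and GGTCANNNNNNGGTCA, on both strands, in RefSeq windows from 250 bases before to 50 bases after each start site. The letters searched leave out the first base of each repeat unit. The first base of the second unit therefore falls among the Ns, and each run of N is a base longer than the spacing named. The first base of the first unit is not in capitals. The Rarb match lay 52 to 37 bases before the start site, on the gene's strand. The Cyp26a1 match, TGAACTTTGGGTGAAC as read on the gene's strand, lay on the opposite strand, 32 to 17 bases before the start site. These letters were found in 81 of 32851 windows of the genome table, or 0.247%. Windows were at hand for 7 of the 9 genes (12 windows, 1 with the repeat) and for 34 of the 43 other retinoid genes listed for comparison (48 windows, 1 with the repeat). The same units spaced by 2 bases were found in 131 windows, or 0.399%, and in no window of a listed gene. A match describes the letters of the window and does not show binding.

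Total counts ran from 28600479 (LTR 2) to 57231024 (NSC 3), and levels are given as CPM, counts scaled to library size by TMM. At these depths a library with 0 counts of a gene allows a level of up to 3 counts, which was 0.0541 CPM in NSC 3 and 0.114 CPM in LTR 2. Such floors, and the counting intervals below, cover counting error only. A principal component analysis put NF1 2 apart from NF1 1 and NF1 3: on the component that held 70.8% of the variance it lay at -19, against 79.1 and 101 for NF1 1 and NF1 3, 79.9 to 85.9 for LTR and -142 to -128 for NSC. NSC 3 also stood apart from the other NSC cultures, with correlations to them of 0.956 and 0.96, against 0.992 between NSC 1 and NSC 5. The levels of the genes named in the labels did not all go with them. Trp53, the target named by shp53, was at 223 to 281 CPM in LTR (adjusted p = 0.00258) and at 217, 151 and 221 CPM in NF1 1, 2 and 3 (adjusted p = 0.0141), above NSC at 107.6 ± 6.2 CPM. Nf1 was at 40.3 to 80 CPM in LTR and 40.1 to 97.2 CPM in the libraries labelled NF1, against 82.5 to 114 CPM in NSC, and was called in neither line. Cdk4 was called higher in LTR, at 935 to 1020 CPM (adjusted p = 0.0135), and not in the libraries labelled NF1, at 393 to 1124 CPM (adjusted p = 0.053), against 325 to 456 CPM in NSC. Hras, read because the lgT/Ras label does not say which Ras gene is meant, was at 92.3 to 165 CPM in LTR (adjusted p = 0.0991) and 122 to 167 CPM in the libraries labelled NF1, where it was called higher (adjusted p = 0.0367), against 72.2 to 94.4 CPM in NSC. None of these genes was called between the lines (adjusted p = 0.567 to 0.928). In NF1 2, Nf1 and Cdk4 (97.2 and 392.9 CPM) lay within the NSC range. Results that rest on NF1 2 or NSC 3 are therefore also given without them.

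In LTR, 3 of the 8 tested retinoic acid genes were lower than in NSC and none was higher at an adjusted p under 0.05 (edgeR's quasi-likelihood test): Aldh1a1, Rarb and Cyp26b1. At an unadjusted p under 0.05, and by DESeq2, 1 was higher (Crabp1) and 4 were lower (the same 3 and Crabp2). Of all 15696 genes, 3293 were higher and 4156 lower at an unadjusted p under 0.05, and 2942 and 3709 by DESeq2. Over all genes tested, 35.9% were called in this comparison, 14.9% higher and 20.9% lower, so a count of 3 in 8 lies near the share of all genes. The count was 1 without LTR 2 and 5 without NF1 2 or NF1 3. Without NF1 2, 7640 genes in all were called. In the libraries labelled NF1, 2 of the 8 were lower than in NSC and none was higher: Aldh1a1 and Crabp2. None was higher at an unadjusted p under 0.05 or by DESeq2 either. Of all 15696 genes, 2829 were higher by the former and 2155 by the latter. There 23.1% of all genes were called, 10.1% higher and 13.1% lower. The count was 3 without NF1 2 and 1 without NSC 1, NSC 5, LTR 1, LTR 3, NF1 1 or NF1 3. In all, 6900 genes were called without NF1 2 and 1752 without NSC 1. The LTR libraries did not overlap NSC for 4 of the 8 genes, all lower, beside 59% of all genes (26.9% higher and 32% lower). The libraries labelled NF1 did not overlap NSC for 4 of the 8, all lower, beside 42.3% of all genes (18.7% higher and 23.7% lower). The median log2 fold change of the 8 genes was -1.46 in LTR and -0.89 in the libraries labelled NF1, beside -0.062 and 0.0039 over all genes. These counts and medians include Aldh1a1, which passed the filter on low counts through its NSC level alone. Its lower level in the tumour lines was thus set by how it entered. Both comparisons use the same 3 NSC libraries, so they are not independent of each other. In the libraries labelled NF1 against LTR, 0 of the 8 genes and 0% of all genes were called. At an unadjusted p under 0.05, 2 of the 8 genes (Aldh1a3 and Rarb, both higher in the libraries labelled NF1) and 1596 of all genes differed in that comparison, and DESeq2 called none of the 8 and 328 of all genes. The lines overlapped in all 8 genes, while 12.5% of all genes did not overlap (7.21% higher and 5.24% lower).

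**Figure D1:**
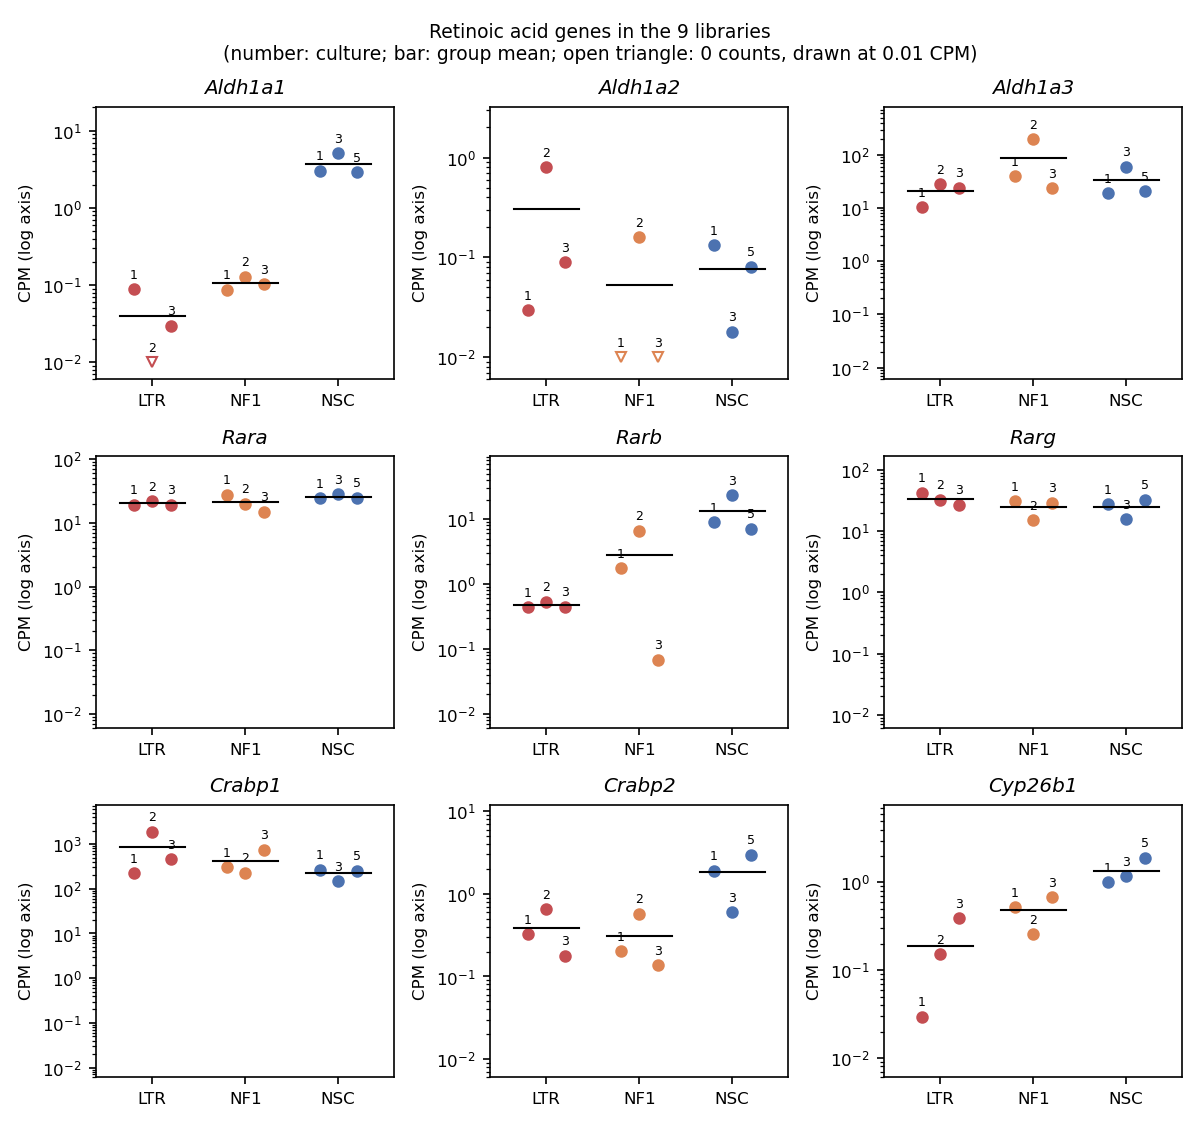
Level of each of the 9 genes in every library, in CPM on a log axis, by group, with the culture number above each point and a bar at the group mean. Aldh1a1 lies at 2.92 to 5.07 CPM in NSC and at 0.128 CPM or less in every tumour library, and Rarb ranges from 0.0683 to 6.66 CPM among the libraries labelled NF1.

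Of the enzymes that make retinoic acid, Aldh1a1 fell in both tumour lines and Aldh1a3, the most abundant of them, did not pass the test in either. Aldh1a1 (ENSMUSG00000053279, GRCm38 chromosome 19, 20492715 to 20643465, plus strand) had 0.089, 0 and 0.0299 CPM in LTR 1, 2 and 3. It had 0.0869, 0.128 and 0.102 CPM in NF1 1, 2 and 3. It had 3.04, 5.07 and 2.92 CPM in NSC 1, 3 and 5. Every tumour library lay far below every NSC library, and the gene had 4 counts in all in LTR and 10 in the libraries labelled NF1, against 505 in NSC. The log2 fold change was -6.35 ± 0.76 (SE) in LTR, with an adjusted p of 0.0011, and -5.08 ± 0.69 in the libraries labelled NF1, with an adjusted p of 0.0021. From the summed counts, Aldh1a1 was 90.4-fold lower in LTR than in NSC (exact 95% counting interval 35.1 to 333) and 36.8-fold lower in the libraries labelled NF1 (19.8 to 77.2). No tumour library reached the level that the filter on low counts asks for, 0.305 CPM, so the gene was tested through its NSC level alone.

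The calls of Aldh1a1 held without NF1 2 and NSC 3, with log2 fold changes of -5.96 in LTR and -4.88 in the libraries labelled NF1. With single libraries left out, the LTR value ran from -7.52 (without LTR 1) to -5.76 (without LTR 2). Of its 50-base words, 3.06% also occur in Aldh1a7, a close copy on the same chromosome, so a small part of its reads could be shared. Aldh1a7 measured 0.0325 CPM in LTR and 0.116 CPM in the libraries labelled NF1, against 2.54 CPM in NSC, and was called lower in both lines (adjusted p = 0.0015 and 0.00406), also tested through its NSC level alone.

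Aldh1a3 (ENSMUSG00000015134, chromosome 7, 66390890 to 66427517, minus strand), the main retinaldehyde dehydrogenase by level in every library, had 10.4, 28.3 and 24.2 CPM in LTR 1, 2 and 3. The libraries labelled NF1 had 40, 199 and 23.5 CPM in cultures 1, 2 and 3. NSC 1, 3 and 5 had 19.1, 60 and 20.9 CPM. The groups overlapped. NF1 2 stood well above every other library, and NSC 3 above the other NSC cultures. Against NSC the log2 fold change was -0.67 ± 0.78 in LTR (adjusted p = 0.523) and 1.39 ± 0.79 in the libraries labelled NF1 (adjusted p = 0.223). Without NF1 2 the value in the libraries labelled NF1 was -0.06, and without NSC 3 the value in LTR was 0.20, so neither direction was stable. Between the lines the gene was 2.06 ± 0.81 higher on the log2 scale in the libraries labelled NF1 than in LTR, with an adjusted p of 0.439.

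Aldh1a2 (ENSMUSG00000013584, chromosome 9, 71215789 to 71296243, plus strand), the dehydrogenase that makes most of the embryo's retinoic acid, was near the floor nearly throughout. It had 1, 21 and 3 counts in LTR 1, 2 and 3, 0, 5 and 0 counts in NF1 1, 2 and 3, and 5, 1 and 3 counts in NSC 1, 3 and 5. LTR 2, at 0.801 CPM, was the library that exceeded the filter's level, and the gene was not tested.

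Levels per kilobase of exon make the dehydrogenases comparable with each other. On that scale Aldh1a3 made up 94.5% to 99.1% of the summed level of the 3 dehydrogenases in LTR, 99.6% to 99.8% in the libraries labelled NF1 and 85.9% to 92.6% in NSC. Aldh1a1 made up 0% to 0.791% in LTR, 0.0601% to 0.406% in the libraries labelled NF1 and 7.32% to 12.8% in NSC. The Aldh1a1 shares of the tumour libraries did not overlap those of NSC. In NSC 3, where Aldh1a1 was at its highest, its share was the lowest of NSC, since Aldh1a3 was also high there.

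**Figure D2:**
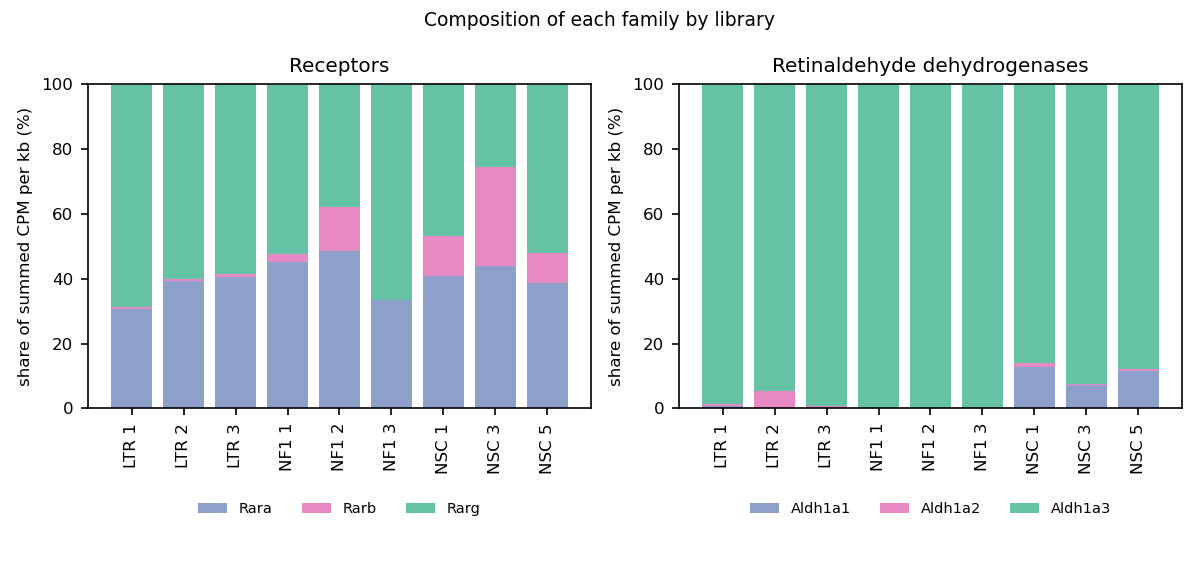
Composition of the receptor family (left) and of the retinaldehyde dehydrogenases (right) in each library, as the share in percent of the summed CPM per kilobase of exon. The Rarb share is 0.588% to 0.796% in LTR and 9.27% to 30.7% in NSC, and the Aldh1a1 share is at most 0.791% in the tumour libraries.

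Cyp26b1 (ENSMUSG00000063415, chromosome 6, 84571414 to 84593908, minus strand), which encodes the retinoic acid hydroxylase of the developing hindbrain and limb, was low in all cultures and fell further in LTR. It had 0.0296, 0.153 and 0.388 CPM in LTR 1, 2 and 3. It had 0.522, 0.256 and 0.683 CPM in NF1 1, 2 and 3. It had 1.01, 1.17 and 1.9 CPM in NSC 1, 3 and 5. All tumour libraries lay below all NSC libraries, and the tumour lines overlapped each other. The summed counts were 18 in LTR and 46 in the libraries labelled NF1, against 174 in NSC. The log2 fold change against NSC was -2.81 ± 0.78 in LTR (adjusted p = 0.0212) and -1.48 ± 0.72 in the libraries labelled NF1 (adjusted p = 0.162). From the summed counts the gene was 6.92-fold lower in LTR (exact 95% counting interval 4.25 to 12). With single libraries left out, the LTR value ran from -3.78 (without LTR 3) to -2.29 (without LTR 1). Leaving out NSC 5 (adjusted p = 0.0717) or LTR 2 (0.0798) lost the LTR call, within a range of 0.00339 to 0.0966 over all alternatives. The other Cyp26 genes were hardly measured: Cyp26a1, whose promoter is printed above, had 2 counts in LTR, 1 in the libraries labelled NF1 and 5 in NSC, and Cyp26c1 had 1 in each group.

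The binding proteins lay far apart in level. Per kilobase of exon, Crabp1 made up at least 99.3% of their summed level in every library. Crabp1 (ENSMUSG00000032291, chromosome 9, 54764748 to 54773110, plus strand) was also the most abundant of the 9 genes per kilobase in every library. It had 221, 1874 and 460 CPM in LTR 1, 2 and 3. The libraries labelled NF1 had 305, 231 and 747 CPM in cultures 1, 2 and 3. NSC 1, 3 and 5 had 264, 148 and 253 CPM. The groups overlapped, and LTR 2 stood above every other library. The log2 fold change against NSC was 1.94 ± 0.74 in LTR (adjusted p = 0.0674) and 0.95 ± 0.72 in the libraries labelled NF1 (adjusted p = 0.361). Without LTR 2 the LTR value was 0.74 (adjusted p = 0.337). The LTR difference passed with DESeq2 (adjusted p = 0.016), with no filter on low counts (0.0282) and without LTR 1 (0.0316), NF1 2 (0.0449) or NF1 3 (0.0456), within a range of 0.016 to 0.43 over all alternatives.

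Crabp2 (ENSMUSG00000004885, chromosome 3, 87948666 to 87953376, plus strand), the binding protein that delivers retinoic acid to its nuclear receptors, was scarce. It had 0.326, 0.649 and 0.179 CPM in LTR 1, 2 and 3. It had 0.203, 0.576 and 0.136 CPM in NF1 1, 2 and 3. It had 1.91, 0.596 and 2.98 CPM in NSC 1, 3 and 5. The low NSC library was NSC 3, which lay below LTR 2 and just above NF1 2. The gene fell in the libraries labelled NF1, with a log2 fold change of -2.56 ± 0.80 and an adjusted p of 0.0462. In LTR it was -2.25 ± 0.79, with an adjusted p of 0.0504, and passed in 9 alternatives, among them DESeq2 (0.0229) and without NSC 3 (0.029), NF1 2 (0.0252) or NF1 3 (0.0461). The result for the libraries labelled NF1 was lost when NSC 1 (adjusted p = 0.113), NSC 5 (0.157), LTR 1 (0.0662), LTR 3 (0.0588), NF1 1 (0.143) or NF1 3 (0.121) was left out, and in a fit of the 6 libraries compared (0.0729). Without both NF1 2 and NSC 3 the gene was called in both lines, at -3.75 in the libraries labelled NF1 (adjusted p = 0.00273) and -2.63 in LTR (0.00441).

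Of the receptors, Rarb fell in LTR, and Rara and Rarg passed the test in neither line. Rarb (ENSMUSG00000017491, chromosome 14, 16430839 to 16819156, minus strand), known from other work as a target of retinoic acid through the repeat printed above, had 0.445, 0.534 and 0.448 CPM in LTR 1, 2 and 3. NF1 1, 2 and 3 had 1.74, 6.66 and 0.0683 CPM. NSC 1, 3 and 5 had 8.92, 23.4 and 7.16 CPM. The LTR libraries lay close together and far below NSC. The libraries labelled NF1 spread over nearly the whole range between the floor and NSC: NF1 3 had 2 counts, while NF1 2 had 208 and lay just under NSC 5. The log2 fold change against NSC was -4.78 ± 1.21 in LTR (adjusted p = 0.015), and from the summed counts of 44 in LTR and 1899 in NSC the gene was 30.9-fold lower (exact 95% counting interval 22.9 to 42.7).

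In the libraries labelled NF1 the Rarb difference from NSC was -2.22 ± 1.06 and did not pass (adjusted p = 0.154), although no library of theirs overlapped NSC. Without NF1 2 it was -3.83 and passed (adjusted p = 0.0137), and without both NF1 2 and NSC 3 it was -3.08 (adjusted p = 0.0211), within a range of 0.0137 to 0.347 over all alternatives. The LTR call narrowly missed the threshold when any 1 LTR library was left out (adjusted p = 0.05004, 0.0503 and 0.0551 without LTR 1, LTR 2 and LTR 3). Without NSC 3 the LTR value was -3.95 (adjusted p = 0.0357). Between the lines Rarb was 2.56 ± 1.11 higher on the log2 scale in the libraries labelled NF1 than in LTR (adjusted p = 0.484), and the groups overlapped. The exons of Rarb share 1793 bases, 34.1% of their union, with Top2b on the other strand, and 227 bases with the antisense gene Gm48162, and the library kit does not mark strand. Top2b, a DNA topoisomerase read here because of that overlap, measured 145.9 ± 16.5 CPM in LTR and 167.3 ± 8.99 CPM in the libraries labelled NF1, against 277.1 ± 32.1 CPM in NSC, and was called lower in both lines (log2 fold changes -0.93 and -0.73). NF1 3 held 2 Rarb counts beside 4599 Top2b counts.

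Rara (ENSMUSG00000037992, chromosome 11, 98927818 to 98974942, plus strand), the most widely expressed of the receptors, averaged 20.1 ± 1.49 CPM in LTR and 20.8 ± 6.33 CPM in the libraries labelled NF1, against 25.6 ± 1.86 CPM in NSC (SD, n = 3 each). All LTR libraries (19.2 to 21.8 CPM) lay below all NSC libraries (24.3 to 27.7 CPM), but the log2 fold change of -0.35 ± 0.24 did not pass (adjusted p = 0.282). The libraries labelled NF1 (14.9 to 27.5 CPM) overlapped NSC (-0.30 ± 0.24, adjusted p = 0.385). Rarg (ENSMUSG00000001288, chromosome 15, 102234938 to 102257517, minus strand) averaged 33.9 ± 7.59 CPM in LTR and 25 ± 8.7 CPM in the libraries labelled NF1, against 25.1 ± 8.62 CPM in NSC. Its groups overlapped, and it did not pass against NSC in LTR (0.43 ± 0.35, adjusted p = 0.358) or in the libraries labelled NF1 (-0.01 ± 0.35, adjusted p = 0.99). The lowest Rarg levels were those of the libraries that stood apart, 15 CPM in NF1 2 and 15.7 CPM in NSC 3.

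**Figure D3:**
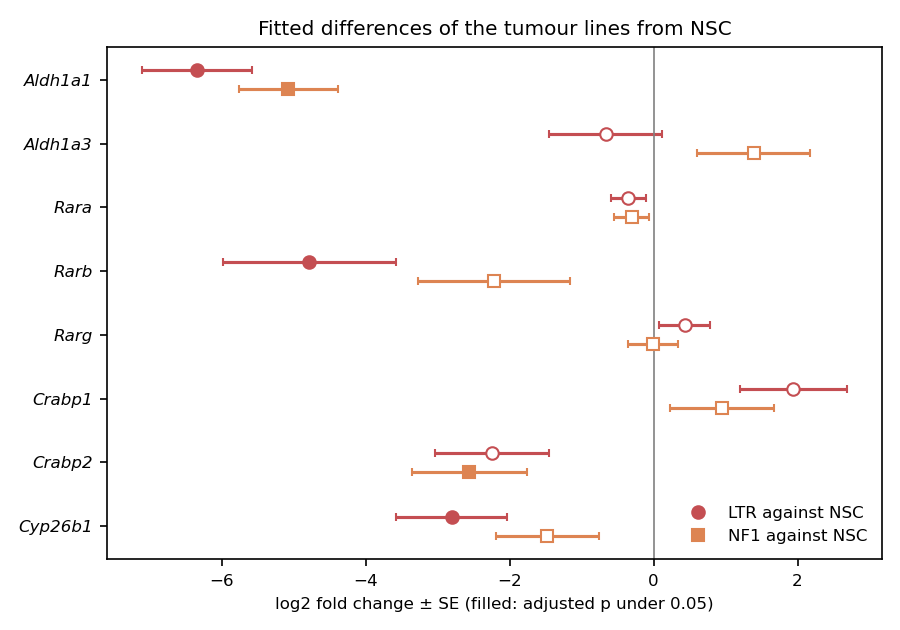
Log2 fold change against NSC with its SE for the 8 tested genes, in LTR (circles) and in the libraries labelled NF1 (squares), filled where the adjusted p was under 0.05. Aldh1a1 is filled in both lines, at -6.35 and -5.08, while Rarb and Cyp26b1 are filled in LTR alone and Crabp2 in the libraries labelled NF1 alone; the differences between the lines did not pass the test for any of them.

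On the scale of CPM per kilobase of exon, the group means of the receptors ranked Rarg, Rara, Rarb in the tumour lines and in NSC. In LTR, Rarg stood at 7.96 ± 1.78, Rara at 4.6 ± 0.34 and Rarb at 0.0903 ± 0.0096 CPM per kilobase, with no overlap between neighbours. In the libraries labelled NF1, Rarg stood at 5.87 ± 2.04, Rara at 4.75 ± 1.45 and Rarb at 0.536 ± 0.651, and Rarg and Rara overlapped. In NSC, Rarg stood at 5.9 ± 2.02, Rara at 5.87 ± 0.426 and Rarb at 2.5 ± 1.69, and Rarg, which was low in NSC 3, overlapped both of the others. Rarb made up 0.588% to 0.796% of the summed receptor level in LTR, 2.38%, 13.6% and 0.127% in NF1 1, 2 and 3, and 12.4%, 30.7% and 9.27% in NSC 1, 3 and 5. NF1 2 therefore fell within the NSC range of this share, as no other tumour library did. Across all 9 genes and every group, Crabp1 stood highest per kilobase (mean 1062 in LTR, 533 in the libraries labelled NF1 and 277 in NSC). The lowest mean belonged to Aldh1a1 in both tumour lines (0.00802 in LTR and 0.0214 in the libraries labelled NF1, there close to Aldh1a2 at 0.0236) and to Aldh1a2 in NSC (0.034).

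For each tested gene, the genes with the most similar profile over the 9 libraries were found among 13032 candidates with a mean of at least 1 CPM, by the root mean square (RMS) difference of centred log2 CPM. Closest to Aldh1a1 were Stk33, Sez6l and Scube3, with RMS differences of 0.356, 0.382 and 0.403. Closest to Rarb were Fam212b (0.594), Gm17750 (0.605) and Ptchd2 (0.618). Its distance to its nearest gene was the largest among the 8. Cyp26b1 was nearest to Otx1 (0.485), Crabp2 to Carns1 (0.321), Crabp1 to Gm5526 (0.365) and Aldh1a3 to Bcl11b (0.377). The flat profiles of Rara and Rarg were nearest to Safb (0.122) and Sclt1 (0.143). These values describe likeness over 9 libraries that differ in depth, lane and group.

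The other genes of the retinoid pathway were 43 listed genes, of which 28 had enough counts to be tested. Against NSC, 5 were higher, 6 lower and 17 not called in LTR, with a median log2 fold change of -0.10, against 14.9% higher, 20.9% lower and a median of -0.06 over all genes tested. Leaving out any 1 NSC or LTR library gave 5 (without NSC 1) to 7 calls in LTR. Without NSC 1, 3281 genes in all were called. For the libraries labelled NF1, 3 were higher, 2 lower and 23 not called, with a median of -0.10, against 10.1% higher, 13.1% lower and a median of 0.0039 over all genes tested. Leaving out NF1 2 gave 11 calls, beside 6900 genes in all. None was called between the lines by edgeR, where 5 had an unadjusted p under 0.05 and DESeq2 called Rbp4 and Meis2. Of all genes tested, 1596 had such a p and DESeq2 called 328.

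Upstream of the Aldh1a enzymes, 10 of 18 listed genes of retinol uptake, storage and oxidation were tested. Of these, 2 rose and 1 fell in LTR, beside 14.9% and 20.9% of all genes. In the libraries labelled NF1, 1 rose and none fell, beside 10.1% and 13.1% of all genes. Adh7, an alcohol dehydrogenase that oxidises retinol, rose in both lines: it had 131, 66 and 58.2 CPM in LTR 1, 2 and 3, 78.7, 79.6 and 122 CPM in NF1 1, 2 and 3, and 17.6, 7.22 and 6.65 CPM in NSC 1, 3 and 5. Its log2 fold change was 3.02 ± 0.47 in LTR (adjusted p = 0.00233) and 3.15 ± 0.47 in the libraries labelled NF1 (adjusted p = 0.00287), with no overlap with NSC, and both calls held in all 17 alternatives. Rdh10, the enzyme of the same step that the embryo depends on, had 24.5 CPM in LTR and 28.1 CPM in the libraries labelled NF1, against 25.6 CPM in NSC, and was not called. Rdh11 (74.9 CPM in LTR, 80.5 CPM in the libraries labelled NF1, 85 CPM in NSC) and Dhrs4 were not called either. Rdh14 fell in LTR (-0.94 ± 0.27, adjusted p = 0.0238), a call lost without NSC 1, NSC 3, LTR 2 or LTR 3 (adjusted p = 0.0714 to 0.127) and with no filter on low counts (0.0522).

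Rbp4, the retinol carrier of serum, rose in LTR to 2.2 CPM, against 0.33 CPM in NSC (2.75 ± 0.72, adjusted p = 0.017), and that call was lost without NSC 1 (0.058) or LTR 1 (0.054). Dhrs3, which returns retinaldehyde to retinol, had 0.348, 9.86 and 0.205 CPM in NF1 1, 2 and 3, and was not called.

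**Figure D4:**
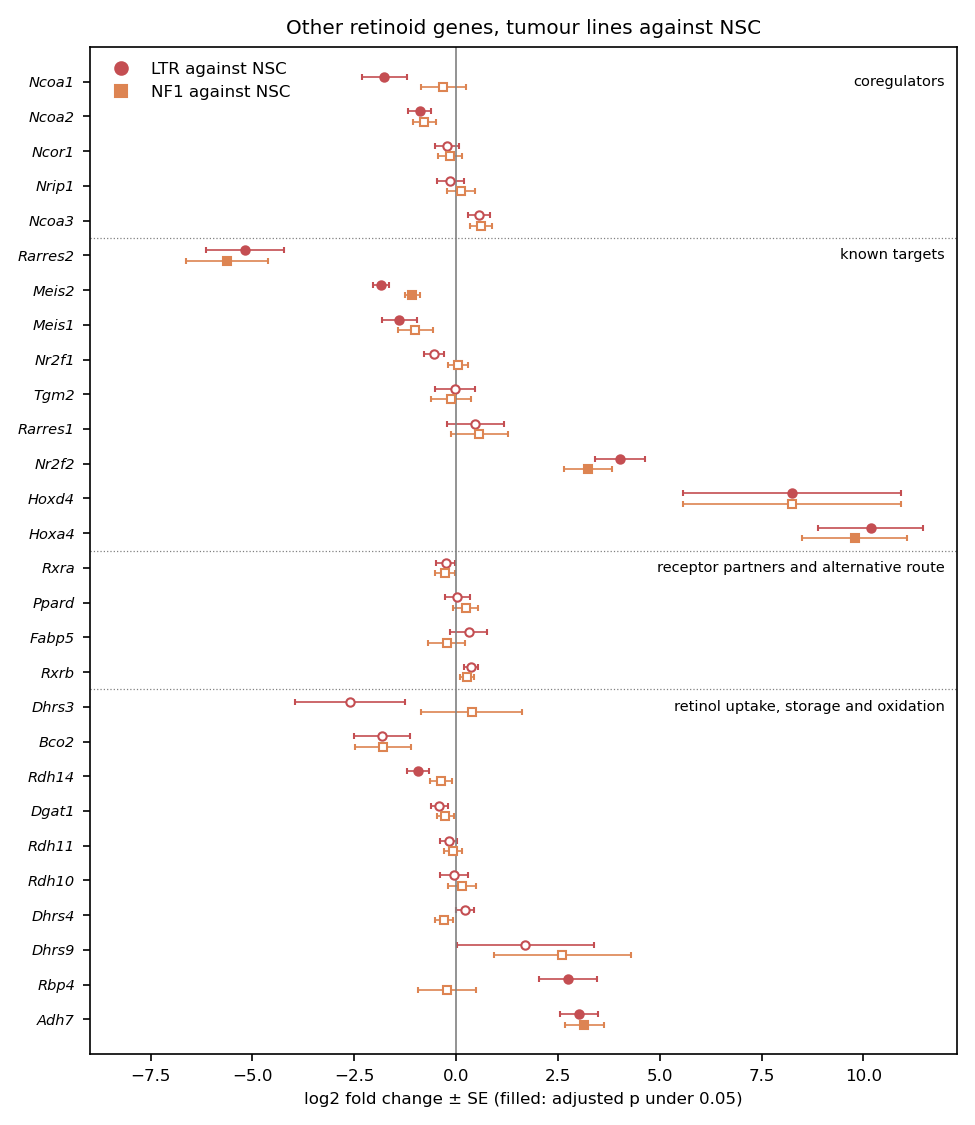
Log2 fold change against NSC with its SE for the 28 other retinoid genes tested, by role, in LTR (circles) and in the libraries labelled NF1 (squares), filled where the adjusted p was under 0.05. Adh7, Nr2f2 and Hoxa4 are filled on the right and Meis2 and Rarres2 on the left in both lines; the values drawn for Hoxa4 and Hoxd4, which had 0 counts in NSC, depend on the prior count of the fit and measure no fold.

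The receptors' partners and the carrier of an alternative route gave no call with all 9 libraries. None of the 4 tested of 5 listed genes passed in either line (edgeR), none had an unadjusted p under 0.05, and DESeq2 called 1, Rxrb, higher in LTR. Among them was Rxra, with 34.5 CPM in LTR and 34.1 CPM in the libraries labelled NF1, against 41.2 CPM in NSC. Fabp5, which carries retinoic acid to another receptor, Ppard, had 181 CPM in LTR and 125 CPM in the libraries labelled NF1, against 110.3, 219 and 108.3 CPM in NSC 1, 3 and 5. Without both NF1 2 and NSC 3 it was called higher in LTR (0.78, adjusted p = 0.037). Of the 5 coregulators, 2 fell in LTR and none was called in the libraries labelled NF1 (edgeR). Over all genes, 14.9% were called higher and 20.9% lower in LTR, and 10.1% and 13.1% in the libraries labelled NF1. In the libraries labelled NF1, 2 coregulators had an unadjusted p under 0.05, Ncoa2 lower and Ncoa3 higher, and DESeq2 called 1, Ncoa2, lower. Of all 15696 genes, 7449 in LTR and 6020 in the libraries labelled NF1 had such a p, and DESeq2 called 6651 and 4903. The coactivator Ncoa1 had 17.6 CPM in LTR and 48.2 CPM in the libraries labelled NF1, against 59.8 CPM in NSC, and fell in LTR (-1.76 ± 0.56, adjusted p = 0.0352). The coactivator Ncoa2 had 30.5 CPM in LTR, against 56.8 CPM in NSC (-0.90 ± 0.28, adjusted p = 0.0337). The Ncoa1 call was lost when any 1 NSC or LTR library was left out (adjusted p = 0.0518 to 0.106), and the Ncoa2 call without any 1 NSC library, LTR 2, LTR 3 or NF1 1 (0.0506 to 0.105) and with scaling by library totals (0.0517). Without NF1 2, both were called lower in the libraries labelled NF1 as well, at -1.20 for Ncoa1 (0.0381) and -0.97 for Ncoa2 (0.0236), and Ncoa2 also without LTR 2 (0.0387). Ncor1 and Ncoa3 were not called.

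Of 13 known target genes listed, 9 were tested. In all, 3 were higher and 3 lower in LTR, while 2 were higher and 2 lower in the libraries labelled NF1, beside the shares of 14.9% and 20.9% in LTR and of 10.1% and 13.1% in the libraries labelled NF1 over all genes. Hoxa4, of the anterior Hox genes, had 382 counts in LTR and 299 in the libraries labelled NF1, against 0 in NSC. From these summed counts it was at least 178-fold higher in LTR and at least 137-fold higher in the libraries labelled NF1 (against 3 counts over the NSC group). The NF1 sum came mostly from NF1 1 and NF1 3 (156 and 124 counts). NF1 2 held 19 counts, at 0.608 CPM against 4.52 CPM in NF1 1 and 4.23 CPM in NF1 3, so the pooled fold does not describe it. With 0 counts in NSC, Hoxa4 was tested through its tumour levels alone. Nr2f2, the nuclear receptor COUP-TFII, had 85.2, 124 and 96 CPM in LTR 1, 2 and 3, 84.6, 13.2 and 79.8 CPM in NF1 1, 2 and 3, and 5.64, 7.06 and 6.03 CPM in NSC 1, 3 and 5. On the log2 scale it rose by 4.03 ± 0.60 in LTR, with an adjusted p of 0.00203, and by 3.24 ± 0.58 in the libraries labelled NF1, with an adjusted p of 0.00574 and with NF1 2 the nearest of the tumour libraries to NSC.

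In the other direction, Meis2, a homeobox gene induced by retinoic acid, fell to 48.3 CPM in LTR and 83.1 CPM in the libraries labelled NF1, against 174.6 CPM in NSC. Its log2 fold changes were -1.85 ± 0.20 (adjusted p = 0.000777) and -1.07 ± 0.19 (0.00592), and both calls held in all 17 alternatives. Rarres2, the retinoic acid responder that encodes chemerin, had 7 counts in LTR and 5 in the libraries labelled NF1, against 359 in NSC, and was called lower in both (adjusted p = 0.0046 and 0.00552). Its highest tumour level was 0.149 CPM, under the filter's level, so like Aldh1a1 it was tested through NSC alone. Meis1, of the same family as Meis2, had 8.24, 10.1 and 8.93 CPM in LTR 1, 2 and 3, 6.93, 21.9 and 6.9 CPM in NF1 1, 2 and 3, and 24.9, 22.2 and 24.3 CPM in NSC 1, 3 and 5. It fell in LTR (-1.39, adjusted p = 0.0339), a call lost when any 1 NSC or LTR library was left out (adjusted p = 0.0592 to 0.0979). It did not pass in the libraries labelled NF1 (adjusted p = 0.121), where NF1 2 lay close to NSC, and without NF1 2 it was -1.77 (adjusted p = 0.000539). Hoxd4, named here after its values were seen, had 64, 0 and 43 counts in LTR 1, 2 and 3, 41, 0 and 59 counts in NF1 1, 2 and 3, and 0 in every NSC library. LTR 2 and NF1 2 thus matched NSC at 0, and the gene was called higher in LTR (adjusted p = 0.0474) but not in the libraries labelled NF1 (0.0626). Like Hoxa4, Hoxd4 was tested through its tumour levels alone. Nr2f1 and Tgm2 were not called. Hoxb1, Hoxb4, Cdx1 and Stra8 had 0 counts in every library.

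Of the marker lists, those of neural stem cells, mural cells, ependyma and microglia had summed levels that did not overlap NSC in either line, and those of endothelium did in both. The summed level of 10 neural stem cell markers was 746 to 1264 CPM in LTR and 832 to 3441 CPM in the libraries labelled NF1, highest in NF1 2, against 5474 to 7387 CPM in NSC. Of these, 6 were lower and 1 higher in LTR, and 4 were lower in the libraries labelled NF1. The shares over all genes were 14.9% higher and 20.9% lower in LTR, and 10.1% and 13.1% in the libraries labelled NF1. Sox2, a defining marker, was present in every library, at 178 to 276 CPM in LTR, 259 to 331 CPM in the libraries labelled NF1 and 307 to 358 CPM in NSC. The 10 markers of meningeal and perivascular fibroblasts summed to 49.8 to 181 CPM in LTR and 26.6 to 30.2 CPM in the libraries labelled NF1, against 786, 55.8 and 1069 CPM in NSC 1, 3 and 5. Of the 6 of them tested, 3 were lower and 1 higher in LTR, and 3 were lower in the libraries labelled NF1. NSC 3 was thus the low NSC library for these markers. Most of the fibroblast sum in NSC came from Col1a1 and Col1a2, while Dcn, Lum, Slc6a13 and Foxd1 each lay at 0.188 CPM or less there. The 6 mural markers summed to 2.11 to 6.52 CPM in LTR and 4.75 to 47.7 CPM in the libraries labelled NF1, against 192 to 966 CPM in NSC. The 3 of them tested were lower in each line. Most of the mural sum in NSC came from Acta2, at 796, 165 and 918 CPM in NSC 1, 3 and 5. Rgs5, which was not tested, went the other way in NF1 2 and made up most of the sum there, at 38.4 CPM against 0.217 to 0.51 CPM in NSC. The 5 ependymal markers summed to 0.597 to 0.712 CPM in LTR and 0.444 to 6.31 CPM in the libraries labelled NF1, against 100.3 to 209 CPM in NSC. Of the 2 of them tested, 2 were lower in LTR and 1 in the libraries labelled NF1. Nearly all of the ependymal sum in NSC came from Foxj1, at 99.9 to 206 CPM, and each of the other markers lay at 1.26 CPM or less there. The 7 microglial markers summed to at most 0.178 CPM in LTR, 0.512 CPM in the libraries labelled NF1 and 3.1 CPM in NSC, with Itgam, Trem2 and Tyrobp at 0 in every tumour library. Itgam has 2 gene identifiers, of which ENSMUSG00000030786 alone was read. The 6 endothelial markers summed to 1.19 to 3.67 CPM in LTR, 1.71 to 8.84 CPM in the libraries labelled NF1 and 2.31 to 4.99 CPM in NSC, with Cldn5 at 0 throughout. Of the 4 of them tested, 1 was higher and 0 lower in each line. The 6 choroid plexus markers summed to 7.77 to 42.6 CPM in LTR and 38.8 to 137 CPM in the libraries labelled NF1, against 12.9 to 19.4 CPM in NSC. LTR thus overlapped NSC and the libraries labelled NF1 did not. Of the 2 tested, 1 was higher (Aqp1) and 1 lower (Otx2) in each line. Most of the sum came from Aqp1 in the tumour lines and from Otx2 in NSC. Otx2 lay at 0 to 0.267 CPM in LTR, 0.58 to 2.91 CPM in the libraries labelled NF1 and 12 to 15.5 CPM in NSC. The part of these cell types in the levels of Aldh1a1, Crabp2, Cyp26b1 and Rarb was not tested.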

How the data were processed

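RNA sequencing of 9 mouse cultures was analysed from the deposited table of raw counts per gene, 3 libraries each for LTR, the libraries labelled NF1, and NSC. Per the submitters' processing notes, which give no settings, the authors used GRCm38 (mm10), STAR 2.5.2a, DESeq2 1.8.2 and HTSeq, and the labels' protocols name the RNeasy Plus and NEBNext Ultra RNA kits. For annotation release, counting mode and strand, no setting is given in the sources used here. That kit does not mark strand, so counts of genes overlapping on opposite strands are uncertain.

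The members, the gene lists and the tests were chosen with earlier results of these data known. Counts were fitted in R 4.3.3 with edgeR 4.0.16 (TMM scaling, filterByExpr with a minimum count of 10, 1 model of 3 groups over 9 libraries, quasi-likelihood F test, Benjamini-Hochberg adjustment over 15696 genes, threshold 0.05). SEs were derived from F, and the fit added a prior count of 0.125. Levels are TMM-scaled CPM, and levels per kilobase use the exon union of GENCODE M21 (GRCm38), which holds 47224 of the 47729 gene identifiers. Promoter windows came from RefSeq (GRCm38). With counts of 0 in a group, a fold is at least the ratio to 3 counts over that group. The script was tested on simulated data, and libraries within a group differed by chi-square values of 13.4 to 395.2 per degree of freedom, far above sampling noise.

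Genes were named by a rule: all 9 members, the genes of the labels, and per comparison and sub-list up to 4 called retinoid genes with the smallest adjusted p and the 2 most abundant uncalled. For each tested member the 3 most alike genes by log2 CPM with a pseudocount of 0.1 were found. Rdh10, Dhrs3, Cyp26a1, Cyp26c1, Top2b, Aldh1a7, Hoxd4, Meis1 in LTR, the markers named for their part in a summed level and the genes at 0 were named outside it. Some retinoid genes are not reported here, and the list counts leave them out. Alternatives were DESeq2 1.42.0, a fit of the 6 libraries compared, scaling by library totals, at least 10 CPM in 3 libraries or no filter at all, the culture number as a block and each library left out. Leaving out both NF1 2 and NSC 3 was chosen after seeing the data.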

Additional observations from a re-analysis of the deposited data

How the results depend on the processing

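Of 395 recomputed member differences, 350 kept their direction and side of the threshold, 13 lost and 16 gained a call and 16 turned. Aldh1a1 kept its call in both lines in all 16 alternatives of each. The turned values were all uncalled. Aldh1a3 in LTR was 0.199 without NSC 3 (with single libraries left out, lowest -0.951, without NSC 1) and 0.122 without both NF1 2 and NSC 3, and in the libraries labelled NF1 -0.061 without NF1 2 (highest 2.167, without NSC 3). Between the lines, without LTR 2, Crabp1 was 0.326 (lowest -1.714, without NF1 3) and Crabp2 0.213 (lowest -1.129, without NF1 2), and Rara was -0.018 without LTR 3 and -0.211 without NF1 1 (highest 0.179, without NF1 3). Rarg in the libraries labelled NF1, -0.008 as reported, was 0.099 in the fit of 6 libraries, 0.055, 0.218, 0.004, 0.104, 0.104 and 0.268 without NSC 1, NSC 5, LTR 1, LTR 2, LTR 3 and NF1 2 (lowest -0.182, without NF1 1), and 0.059 without both libraries. With 1 library left out, calls in LTR against NSC numbered 1 to 5 members, 5 to 13 other retinoid genes and 3281 to 7640 genes in all. In the libraries labelled NF1 against NSC they numbered 1 to 3, 5 to 11 and 1752 to 6900, and against LTR 0 to 0, 0 to 0 and 0 to 34. DESeq2 called 5 members in LTR against NSC, and 2 other retinoid genes and 328 genes between the lines. With no filter, 5 members were called in LTR and 52 genes between the lines. The stricter filter tested 4 members and called 0 of them in either line, with 7 other retinoid genes in LTR and 3 in the libraries labelled NF1, and 2103 genes in all there. The fit of 6 libraries called 1 member in the libraries labelled NF1. Without both NF1 2 and NSC 3, 10 other retinoid genes and 7485 genes in all were called in the libraries labelled NF1 against NSC, and 104 genes between the lines. Except where a filter or a left-out library changed what was tested, the cause was not tested.

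Same-numbered cultures of different groups deviated together with correlations of -0.195 to 0.123, and differently numbered ones with -0.145 to 0.16. No pairing by number was seen, but so few cultures cannot exclude one, and the labels do not say whether the numbers pair cultures. With the culture number as a block, 3 members in LTR, 2 in the libraries labelled NF1 and 0 between the lines were called, with 3477 and 1942 genes in all (1026 higher and 2451 lower in LTR, 546 higher and 1396 lower in the libraries labelled NF1). Under the block, the LTR calls of Cyp26b1 (adjusted p = 0.0966), Ncoa1 (0.0837), Ncoa2 (0.1305) and Rdh14 (0.075) and that of Rarres2 in the libraries labelled NF1 (0.0507) were lost, Crabp2 in LTR passed (0.0499), Aldh1a3 in LTR had its lowest value of all alternatives, -1.382, and Rarg in the libraries labelled NF1 was 0.392. Depth limits Aldh1a1, Aldh1a2, Crabp2 and Cyp26b1 most, whose counts in the tumour libraries were the lowest.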
